A study of Mus musculus with 4 samples.

Results

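Enteroendocrine cells are the scattered hormone-producing cells of the gut lining, and 10 genes of their products were followed here: Nts, Gcg, Pyy, Gip, Cck, Ghrl, Sct, Sst, Tac1 and Chga. They were chosen by name, as every non-control probe whose gene name, or current symbol through its accession, is one of these 10. That gave 16 probes of the 41174 non-control probes on the array, and all 10 genes were among the 12437 genes tested. The samples were cells freshly isolated from the small bowel of IKKb(EE)IEC mice, in whose intestinal epithelial cells (IEC) the kinase IKKb is always active, and of their wild-type (WT) littermates. Each genotype had 2 biological replicates, and the total RNA of each was measured on 1 array with the dye Cy3. The promoter that drives the transgene, the strain, age and sex of the mice and the number of mice behind a sample are not given in the sources used here.

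Enteroendocrine cells arise from crypt stem cells, store peptides in dense granules and release them in response to nutrients. Most hormones are cut from longer precursors by prohormone convertases, and they act on nerves, the pancreas, the gallbladder and neighbouring epithelium. In the mouse, Gip and Cck are made mostly in the proximal small intestine, while Nts, Pyy and the Gcg-derived peptides increase towards the ileum. IKKb activates the transcription factor NF-kB by marking its inhibitors for destruction.

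Of the 10 genes, 1 passed the test for a difference between genotypes. The neurotensin gene Nts fell by 1.27 ± 0.19 on the log2 scale in IKKb(EE)IEC, to 0.413 of its WT signal (adjusted p = 0.0178 by limma). The other 9 did not pass. Gcg, Sst, Gip and Pyy had log2 fold changes of -0.53 to -0.76, Cck and Chga of 0.55 and 0.73, and Ghrl, Sct and Tac1 of -0.16 to 0.04. Fold changes are differences of mean log2 signal, IKKb(EE)IEC minus WT, followed by their standard error from limma with 2 arrays per genotype. A gene is called at an adjusted p below 0.05. Over all genes tested, 15.2% were called, 8.02% higher and 7.20% lower, so 1 of 10 is not more than that share. In these bulk samples, fewer cells of a type and less RNA per cell cannot be told apart.

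The promoter windows of Nts, Sst and Chga are shown, Nts because it is the gene that passed. Sst and Chga, whose fold changes had opposite signs without passing, were picked for a match to the letters searched for the cyclic AMP response element. Each window runs from 250 bases before to 50 bases after the start of the gene (RefSeq, GRCm38.p6), is written 5′ to 3′ on the strand of the gene, and has motif matches in capitals. The Nts window is at chr10:102490369-102490668 on the minus strand, the Sst window at chr16:23890795-23891094 on the minus strand and the Chga window at chr12:102554691-102554990 on the plus strand.
Nts: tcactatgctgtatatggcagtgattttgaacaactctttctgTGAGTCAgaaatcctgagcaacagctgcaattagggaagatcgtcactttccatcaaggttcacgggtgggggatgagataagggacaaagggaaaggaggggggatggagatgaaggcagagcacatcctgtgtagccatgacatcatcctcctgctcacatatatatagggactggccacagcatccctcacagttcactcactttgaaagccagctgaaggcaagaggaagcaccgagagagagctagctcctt
Sst: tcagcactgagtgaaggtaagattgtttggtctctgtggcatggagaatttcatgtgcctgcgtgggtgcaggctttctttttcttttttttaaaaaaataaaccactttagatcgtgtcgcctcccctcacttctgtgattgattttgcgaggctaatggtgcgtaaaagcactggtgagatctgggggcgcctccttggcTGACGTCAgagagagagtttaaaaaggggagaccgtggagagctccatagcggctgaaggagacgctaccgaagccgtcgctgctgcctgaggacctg
Chga: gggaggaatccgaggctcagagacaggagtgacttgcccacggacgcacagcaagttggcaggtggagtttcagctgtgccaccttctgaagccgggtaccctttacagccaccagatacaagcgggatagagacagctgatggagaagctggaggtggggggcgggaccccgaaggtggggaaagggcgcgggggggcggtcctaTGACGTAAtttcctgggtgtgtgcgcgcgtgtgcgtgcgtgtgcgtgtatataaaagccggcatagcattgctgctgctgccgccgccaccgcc

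The letters searched on both strands were TGANTCA for AP-1, TGACGTNA for the cyclic AMP response element (CRE), and the 10-base consensus of NF-kB. The AP-1 and CRE forms shared no bases in the windows shown. The Nts window held 1 AP-1 match (bases 44 to 50 from its 5′ end), the Sst window 1 CRE-type match (bases 203 to 210, TGACGTCA) and the Chga window 1 CRE-type match (bases 207 to 214, TGACGTAA). Among the 14 windows of the 10 genes, 1 of the 4 windows of Ghrl also held an AP-1 match, and none held an NF-kB match. Of all 32851 windows in the same table, 7.81% held an AP-1, 2.93% a CRE-type and 4.51% an NF-kB match. A match describes the letters of this window and no more, and forms that differ from the letters searched were not counted.

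The arrays and their background apply to every value below. The 75th percentile of the processed signal, by which each array was shifted, was 94.6 and 107.8 in IKKb(EE)IEC, against 60.3 and 66.1 in WT. Spots well above background made up 40.8% and 41.1% in IKKb(EE)IEC and 34.3% and 36.0% in WT of all non-control spots. Arrays of a genotype correlated at 0.994 in IKKb(EE)IEC and 0.978 in WT over the genes tested, against 0.937 to 0.947 between genotypes. All 10 epithelial markers, among them Epcam, Vil1 and Cdx2, were well above background on all 4 arrays, and none of the 10 passed the test. The genotypes did not overlap for 6 of them, 4 higher and 2 lower in IKKb(EE)IEC, against 69.1% of all genes tested. With 2 arrays per genotype this does not show equal epithelial content. All 4 arrays lie on 1 slide, so slide position and genotype cannot be told apart, and the number of arrays limits the precision.

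Each hormone had at least 1 probe that could be measured on all 4 arrays. Of the 16 probes, 13 passed the filter, which needed 2 or more of the 4 arrays to be well above background, and 12 were well above background on all 4. The 3 that were below it on every array were the second probe of Cck and 2 further probes of Tac1. The 10 probes that represent the genes were all well above background on all 4 arrays, so the filter did not select them for a difference. No spot of these probes was saturated. Levels are given per probe, and levels of different genes are not compared. The sums per list below add the signals of different probes, so brighter probes weigh more.

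**Figure D1:**
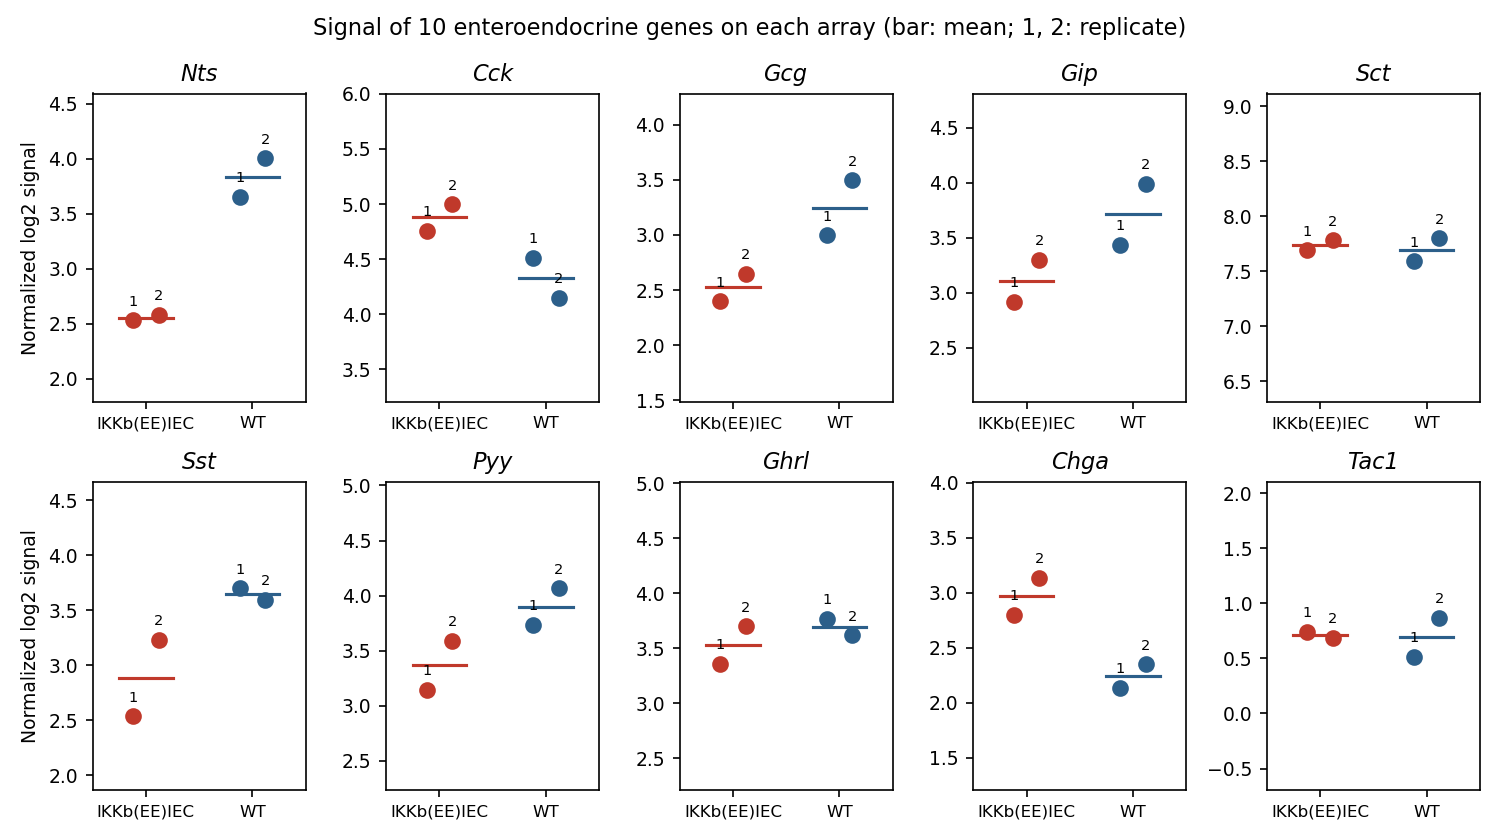
Normalized log2 signal of the 10 genes on each array, IKKb(EE)IEC at the left and WT at the right of each panel, with the mean as a bar and the replicate number beside each point; every panel spans the same number of log2 units. The genotypes do not overlap for Nts, Gcg, Gip, Sst, Pyy, Cck and Chga, and overlap for Sct, Ghrl and Tac1.

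Nts encodes the precursor of neurotensin, which slows upper gut movement and promotes fat absorption. Its normalized log2 signal was 2.53 and 2.58 in IKKb(EE)IEC and 3.65 and 4.004 in WT, on a probe at chromosome 10, 101912021 to 101912080 (mm8, as are all probe positions). Both IKKb(EE)IEC arrays lay more than 1 log2 unit below the lower WT array, and the 2 IKKb(EE)IEC arrays were 0.05 apart. Of all genes tested, 2.56% had a lower fold change than Nts. Its fold change was -1.45 and -1.10 without WT replicate 1 and 2 (adjusted p = 9.31e-05 and 0.000904) and -1.25 and -1.30 without IKKb(EE)IEC replicate 1 and 2, where it no longer passed (adjusted p = 0.155 and 0.144). The 3 genes whose mean-centred log2 values over the 4 arrays lay nearest to those of Nts were Nrg4, Slc5a6 and Vnn1, at distances of 0.073, 0.095 and 0.117. With 4 arrays of 2 genotypes such nearness follows the genotype difference itself.

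Gcg encodes proglucagon, from which intestinal L cells cut the incretin GLP-1 and the growth factor GLP-2. Its log2 signal was 2.40 and 2.65 in IKKb(EE)IEC and 2.996 and 3.50 in WT (chromosome 2, 62275467 to 62275526), so both IKKb(EE)IEC arrays were lower. The fold change of -0.72 ± 0.23 had a 95% interval of -1.31 to -0.14 and did not pass (adjusted p = 0.0875). A dimmer second Gcg probe at 62281577 to 62281636 had -1.28 and -1.84 in IKKb(EE)IEC and -0.40 and -0.27 in WT. It fell by 1.22 ± 0.24 in the fit over all probes (adjusted p = 0.0324), and was well above background on 1 of the 2 IKKb(EE)IEC arrays and on both WT arrays. Both probes thus lay lower in IKKb(EE)IEC, and the call depended on the probe. With the mean over probes, the fold change of Gcg was -0.97 and it passed (adjusted p = 0.0335). It also passed without WT replicate 1, at -0.97 (adjusted p = 0.00188), and was -0.47 without WT replicate 2.

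Pyy encodes peptide YY, a satiety and motility hormone that L cells release with the Gcg products. Its log2 signal was 3.14 and 3.59 in IKKb(EE)IEC and 3.73 and 4.06 in WT (chromosome 11, 101922766 to 101922825). The groups did not overlap, but the gap between them was smaller than the gap within either, and the fold change of -0.53 ± 0.23 did not pass (adjusted p = 0.154). Its second probe gave 0.24 and 0.72 in IKKb(EE)IEC and 0.90 and 1.39 in WT, with -0.67 ± 0.26 in the fit over all probes (adjusted p = 0.130). Pyy passed without WT replicate 1 (-0.70, adjusted p = 0.0190) and had -0.31 without IKKb(EE)IEC replicate 1.

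Sst encodes somatostatin, the inhibitory peptide of D cells. Its log2 signal was 2.54 and 3.23 in IKKb(EE)IEC and 3.70 and 3.60 in WT (chromosome 16, 23805039 to 23805098). The fold change of -0.76 ± 0.27 had a 95% interval of -1.43 to -0.10 and did not pass (adjusted p = 0.0999). The 2 IKKb(EE)IEC arrays differed by 0.70, a gap that 1.78% of all genes exceeded, while the 2 WT arrays differed by 0.11. Without IKKb(EE)IEC replicate 1 the fold change was -0.42 and without replicate 2 it was -1.11, neither of which passed. It passed without WT replicate 1 and without replicate 2, at -0.71 and -0.82 (adjusted p = 0.0369 and 0.0290).

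Sst and Gcg are each represented by a probe spotted 10 times per array, which separates spot error from the difference between samples. The SD over the 10 spots was 0.066 and 0.066 for Sst in IKKb(EE)IEC, against 0.062 and 0.072 in WT. For Gcg it was 0.066 and 0.050 in IKKb(EE)IEC and 0.047 and 0.075 in WT. The lowest spot of Sst on the array of IKKb(EE)IEC replicate 2 (3.15) was above the highest spot on that of replicate 1 (2.64), so the gap between these samples exceeded the spread between spots. For Gcg the highest IKKb(EE)IEC spot (2.74) lay below the lowest WT spot (2.89). Spots of an array share its sample and are not replicates of the genotype.

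**Figure D2:**
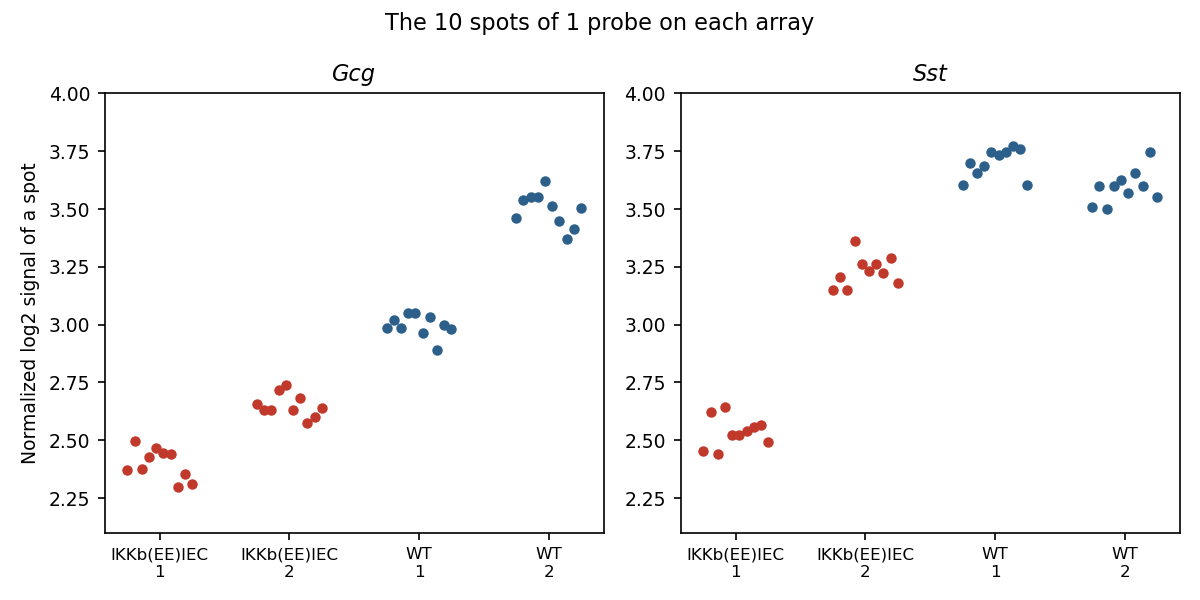
Normalized log2 signal of the 10 spots of the Gcg probe (left) and of the Sst probe (right) on each array, IKKb(EE)IEC before WT. Spots of an array lie close together, with SDs of 0.047 to 0.075, while the 2 IKKb(EE)IEC arrays are 0.70 apart for Sst.

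Gip and Cck are products of the proximal gut, K cells and I cells, and their values went opposite ways. Gip, which encodes the incretin GIP, had a log2 signal of 2.92 and 3.30 in IKKb(EE)IEC and 3.44 and 3.99 in WT (chromosome 11, 95841521 to 95842742). Its fold change of -0.61 ± 0.26 did not pass (adjusted p = 0.149), and it was -0.88 without WT replicate 1, where it passed (adjusted p = 0.00490), and -0.33 without WT replicate 2. Cck encodes cholecystokinin, which drives gallbladder contraction and pancreatic enzyme release. Its log2 signal was 4.76 and 4.999 in IKKb(EE)IEC and 4.51 and 4.15 in WT (chromosome 9, 121338611 to 121338670), so both IKKb(EE)IEC arrays were higher. The fold change of 0.55 ± 0.21 did not pass (adjusted p = 0.120). It passed without WT replicate 1 (0.73, adjusted p = 0.00901) and was 0.36 without WT replicate 2. Whether Gip and Cck differ from each other in response was not tested.

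Chga encodes chromogranin A, an acidic protein of the granules that many enteroendocrine cells share. Its log2 signal was 2.80 and 3.14 in IKKb(EE)IEC and 2.14 and 2.35 in WT (chromosome 12, 102965923 to 102965982), with no overlap between the genotypes. The fold change of 0.73 ± 0.20 corresponded to 1.65 times the WT signal, with a 95% interval of 0.22 to 1.23, and narrowly missed the threshold (adjusted p = 0.0641). It passed under 5 of 13 alternatives and was positive under all 13. These 5 were leaving out WT replicate 1 (0.62) or WT replicate 2 (0.83), the deposited value table, the normexp correction with the darkest spots raised and the filter on all 4 arrays.

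Sct, Ghrl and Tac1 showed no separation of the genotypes. Sct, which encodes the bicarbonate-releasing hormone secretin, had 7.69 and 7.78 in IKKb(EE)IEC and 7.59 and 7.80 in WT (chromosome 7, 141129659 to 141129718). Its fold change was 0.04 ± 0.17, and the 95% interval of -0.40 to 0.48 leaves room for differences of that size. In the authors' value table it was 0.40 and passed (adjusted p = 0.0444), while it turned negative, at -0.06, without WT replicate 1. Ghrl encodes ghrelin, a hunger hormone made mainly in the stomach. It had 3.36 and 3.70 in IKKb(EE)IEC and 3.77 and 3.62 in WT (chromosome 6, 113682884 to 113684891), with a fold change of -0.16 ± 0.20 (95% interval -0.65 to 0.33). Its second probe gave 0.01 ± 0.28 in the fit over all probes. Tac1, the precursor gene of substance P in enterochromaffin cells and neurons, had 0.74 and 0.69 in IKKb(EE)IEC and 0.51 and 0.87 in WT (chromosome 6, 7507722 to 7509136). Its fold change was 0.02 ± 0.19, with a 95% interval of -0.46 to 0.51, and was 0.20 and -0.15 without WT replicate 2 and 1.

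**Figure D3:**
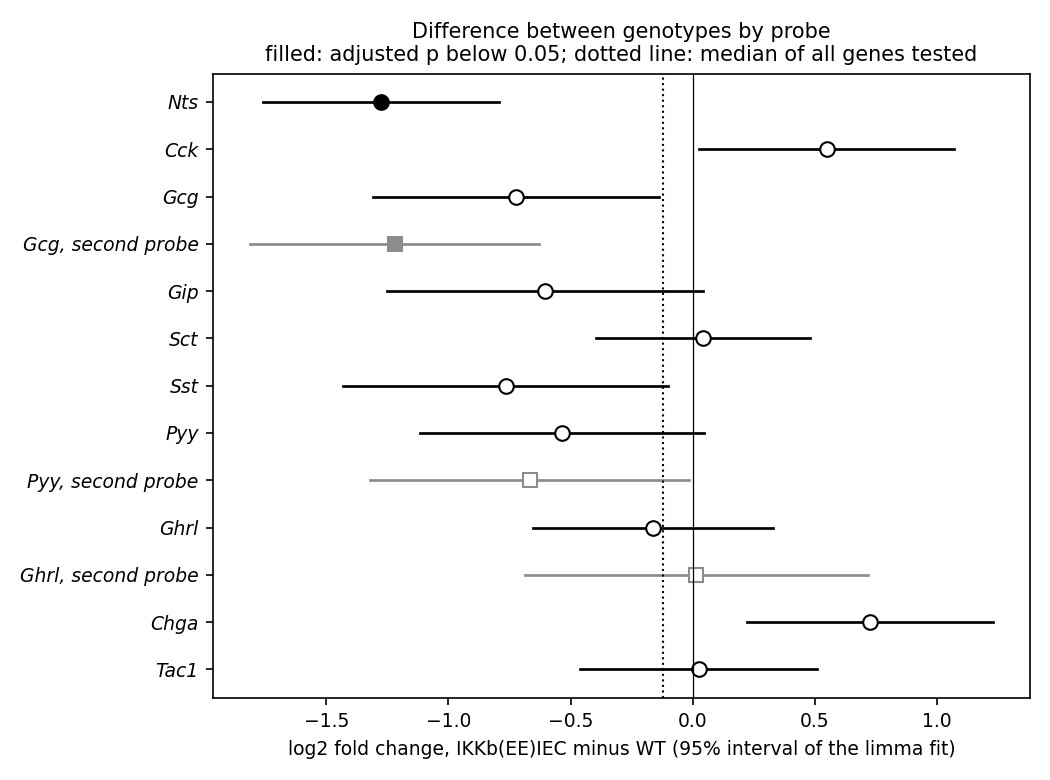
Log2 fold changes, IKKb(EE)IEC minus WT, of the 10 genes (circles) and of second probes that passed the filter (grey squares, from the fit over all probes), with 95% intervals; filled symbols have an adjusted p below 0.05 and the dotted line is the median of all genes tested, -0.12. Nts and the second probe of Gcg are the filled symbols.

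Read as a list, the 10 genes resembled the background in how often the genotypes separated. The arrays did not overlap for 7 of the 10, 2 higher and 5 lower in IKKb(EE)IEC, against 69.1% of all genes tested (28.3% higher and 40.8% lower). An unadjusted p below 0.05 was reached by 5 of 10, against 38.1% of all genes. The median log2 fold change of the list was -0.35, beside -0.12 for all genes. The median size of the fold change, whatever its sign, was 0.58 in the list and 0.41 over all genes.

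The hormones also varied between samples of 1 genotype. The array of IKKb(EE)IEC replicate 2 was above that of replicate 1 for 9 of the 10 genes, with Tac1 as the exception, against 51.5% of all genes. The median gap between these arrays was 0.29 for the hormones and 0.01 over all genes (replicate 2 minus replicate 1). In WT, replicate 2 was above replicate 1 for 7 of the 10, with Cck, Sst and Ghrl as exceptions, against 54.3% of all genes, and the median gap was 0.27 for the hormones and 0.05 over all genes.

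Markers of the proximal and distal small intestine also differed between arrays. Of 10 distal small intestine markers, 2 fell, among them the bile acid transporter subunit gene Slc51a, none rose and 8 did not pass (median -0.52). The ileal bile acid binding protein gene Fabp6 had 0.50 and 1.72 in IKKb(EE)IEC and 1.04 and 3.99 in WT, and the ileal bile acid transporter gene Slc10a2 had 0.77 and 1.64 in IKKb(EE)IEC and 0.50 and 2.41 in WT. Both were highest in WT replicate 2, the array where Nts, Gcg, Pyy, Gip, Sct and Tac1 were also highest. Between IKKb(EE)IEC replicate 2 and WT replicate 1 the order differed, since Fabp6 and Slc10a2 were higher in the IKKb(EE)IEC sample and Nts, Gcg and Pyy were higher in the WT sample. The summed normalized signal of the distal list was 8.64 and 8.65 in IKKb(EE)IEC and 9.32 and 9.38 in WT on the log2 scale. Of 8 measured proximal markers, 2 rose (Onecut2, a proximal transcription factor, and Adh1), 2 fell (Fabp1 and Lct) and 4 did not pass (median -0.30), with sums of 10.91 and 10.81 in IKKb(EE)IEC and 12.38 and 11.69 in WT. The part of the bowel region in the hormone values was not tested.

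For markers of other hormone-producing or neighbouring tissues, the normalized signals were summed per list, and the sums are given on the log2 scale. Of 13 markers of enteric neurons and glia, 10 were not well above background on any array, among them Elavl4 and Vip, and the sums were 1.83 and 1.74 in IKKb(EE)IEC and 2.14 and 2.29 in WT. In the pancreatic islet list, 2 of 4 measured genes fell and none rose, with sums of 4.86 and 4.44 in IKKb(EE)IEC and 4.75 and 4.40 in WT. The insulin gene Ins2 had -1.09 and -1.50 in IKKb(EE)IEC and -0.91 and -0.72 in WT and did not pass, while Ins1 was well above background on 1 WT array alone. Of 14 listed pancreas acinar genes, 7 were not well above background on any array, and 3 of the 7 measured fell (Clps, Pnliprp2 and Pnliprp1). The acinar sums were 4.91 and 5.04 in IKKb(EE)IEC and 8.88 and 7.68 in WT, where Clps alone had 8.78 and 7.52. The acinar sums, but not every measured acinar gene, were higher in WT replicate 1 than in replicate 2. Of the 10 hormones, 7 were higher in WT replicate 2, among them Gcg, Pyy and Nts. Both measured stomach genes, of 9 listed, did not pass (sums of 0.76 and 0.47 in IKKb(EE)IEC and 0.98 and 1.48 in WT). The colon list had 2 falls, Mptx1 and Aqp8, among 4 (sums of 7.19 and 7.34 in IKKb(EE)IEC and 9.76 and 10.09 in WT). The neuron and glia, stomach and colon sums were lower on both IKKb(EE)IEC arrays than on either WT array and highest in WT replicate 2. The same held for Nts, Gcg, Pyy and Gip. The part of these tissues in the hormone values was not tested.

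Among cells from outside the epithelium, 6 of 9 measured macrophage and dendritic cell markers rose, with sums of 4.88 and 4.52 in IKKb(EE)IEC and 3.001 and 3.18 in WT. C1qc and Fcgr1 were at least 17.4-fold and 9.89-fold higher, on probes that neither WT array had well above background. The 3 markers of this list that did not pass were C1qb, Csf1r and Cd68, with log2 fold changes of -0.15, 0.34 and 0.79. C1qb, well above background on all 4 arrays, had 2.22 and 2.12 in IKKb(EE)IEC and 2.36 and 2.27 in WT. None of 10 T and NK cell markers passed (sums of 6.71 and 6.52 in IKKb(EE)IEC and 6.91 and 7.27 in WT), 1 of 4 stromal and muscle markers fell (Myh11; 4.18 and 4.05 in IKKb(EE)IEC and 4.23 and 4.09 in WT), and 1 of 3 endothelial and blood markers rose (Pf4; 6.56 and 5.04 in IKKb(EE)IEC and 4.62 and 5.07 in WT). A figure of at least N-fold sets the brighter genotype against the higher of the dim probe's own value and the lowest value of any probe well above background on each array. Such figures hold for the main processing alone. After the plain normexp correction the log2 fold changes of C1qc and Fcgr1 were 1.90 and 1.29, and neither passed. What these cells contributed to the hormone values was not tested.

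Genes that share the granule with the hormones gave no call. Of 8 measured granule and prohormone processing genes, none rose and none fell (median -0.07). Chgb, the chromogranin B gene, had 5.32 and 5.47 in IKKb(EE)IEC and 4.76 and 3.56 in WT, so both IKKb(EE)IEC arrays were higher. Its fold change of 1.24 ± 0.40 did not pass (adjusted p = 0.0868), and was 1.84 and 0.64 without WT replicate 1 and 2, where it passed in both. Sez6l2 had -0.71 ± 0.23 (adjusted p = 0.0848) and passed without WT replicate 1 (-0.97), with -0.45 without WT replicate 2. The prohormone convertase genes Pcsk1 and Pcsk2 had values of -0.04 and 0.09 and the carboxypeptidase gene Cpe of 0.02, each with overlapping genotypes.

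Genes of amine handling and of other gut peptides moved in both directions. Maob, a mitochondrial enzyme that breaks down amines, fell by 1.80 ± 0.17 (adjusted p = 0.00457), with 2.04 and 2.09 in IKKb(EE)IEC and 3.94 and 3.80 in WT. Gch1, which makes the cofactor of serotonin synthesis, rose by 0.98 ± 0.18, and Hdc, the histamine-forming enzyme, was at least 1.18-fold higher, on a probe that neither WT array had well above background (adjusted p = 0.0285 and 0.0204). Among the 3 amine genes without a call was Tph1, the serotonin synthesis enzyme of enterochromaffin cells (-0.11). Of 5 measured genes of other gut and guanylin peptides, the guanylin genes Guca2b and Guca2a rose by 1.41 ± 0.17 and 1.38 ± 0.26 (adjusted p = 0.00879 and 0.0318). Guca2b had 10.45 and 10.59 in IKKb(EE)IEC and 9.08 and 9.12 in WT. The amylin gene Iapp, which islets and some gut endocrine cells express, fell by 0.82 ± 0.16 (adjusted p = 0.0339), and Insl5, a peptide of distal L cells, had -0.31 and did not pass.

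The transcription factors and receptors around the hormones had lower medians than all genes. With no filter, where dimmer genes enter, the median of all genes was itself -0.45. The part of signal level in the list medians was not tested. Of 19 enteroendocrine transcription factors, 12 were not well above background on any array, and among the 7 measured 1 fell and none rose (median -0.69, beside -0.12 for all genes). Fev, a factor of serotonin-producing cells, fell by 0.76 ± 0.17 (adjusted p = 0.0425, and 0.0580 with the replicate number as a block), with 0.53 and 0.48 in IKKb(EE)IEC and 1.18 and 1.36 in WT. Neurog3, the factor that starts the lineage, had -0.72 and Isl1 -0.62, and neither passed. Of 8 measured receptors, 2 fell and none rose (median -0.71). Tacr1, the substance P receptor, fell by 0.69 ± 0.17 (adjusted p = 0.0484, and 0.0654 with the replicate number as a block). Ntsr2, a neurotensin receptor, had a fold change of -0.91 ± 0.18 (adjusted p = 0.0336), on a probe that neither IKKb(EE)IEC array had well above background. The fold change of Ntsr2 was -0.30 in the authors' value table and -0.17 after plain normexp, and passed in neither. The values do not tell which cells these receptor transcripts came from.

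Among 8 measured nutrient sensor genes 1 rose and 1 fell (median -0.06). Abcc8, the sulfonylurea receptor subunit of the ATP-sensitive potassium channel, rose by 1.10 ± 0.23 (adjusted p = 0.0372), and Tas1r3, a taste receptor subunit, fell by 0.76 ± 0.16 (adjusted p = 0.0402, and 0.0554 with that block). Among 9 measured enzymes that degrade or modify hormones, the aminopeptidase gene Anpep rose by 1.10 ± 0.16 (adjusted p = 0.0169) and 8 did not pass (median 0.37). Dpp4, whose product inactivates GLP-1 and GIP, had -0.56 and did not pass. Of the 12 companion genes that passed, none passed without IKKb(EE)IEC replicate 1 and 1 passed without IKKb(EE)IEC replicate 2, while all 12 passed without either WT array. With all arrays kept, 9 of the 12 passed with the replicate block (all but Fev, Tacr1 and Tas1r3), 8 in the authors' value table and 7 with a shift by the array median. The number was 7 after the normexp correction with the darkest spots raised, 4 with no filter and 0 after plain normexp. Fev passed in 6 and Tacr1 in 5 of 13 alternatives, and Iapp in 6, Tas1r3 in 7, and Hdc and Ntsr2 in 7 and 5 of 12.

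**Figure D4:**
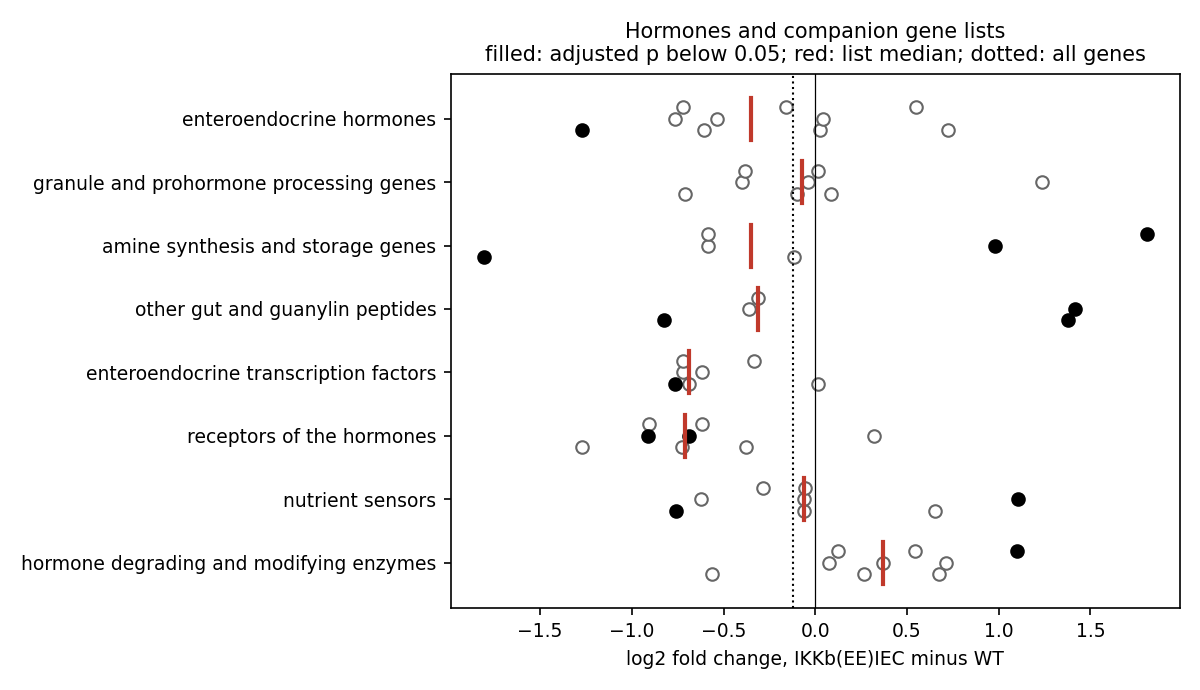
Log2 fold changes, IKKb(EE)IEC minus WT, of the measured genes of each list, with filled points for an adjusted p below 0.05, a red bar at the list median and a dotted line at the median of all genes tested. The list medians run from -0.71 for the receptors to 0.37 for the degrading enzymes, beside -0.35 for the hormones.

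Across the alternatives the direction of most hormones was steady. Nts passed in 10 of 13 alternatives, with fold changes of -1.45 to -0.92. Gcg lay between -0.97 and -0.41, Sst between -1.11 and -0.42, Gip between -0.88 and -0.32 and Pyy between -0.76 and -0.21. Cck lay between 0.36 and 0.80 and Chga between 0.46 and 0.89. Genes whose arrays do not overlap between genotypes cannot change sign when 1 array is left out. None of the alternatives used the processed signals without scaling between arrays. Before scaling, IKKb(EE)IEC had 499 and 677 and WT 481 and 748 for Gcg. For Gip these were 716 and 1061 against 652 and 1052, and for Pyy 835 and 1296 against 801 and 1106. For Sst they were 550 and 1014 against 785 and 801, so these genes all overlapped. Nts stayed lower, with 547 and 644 against 758 and 1061, and Cck and Chga stayed higher.

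**Figure D5:**
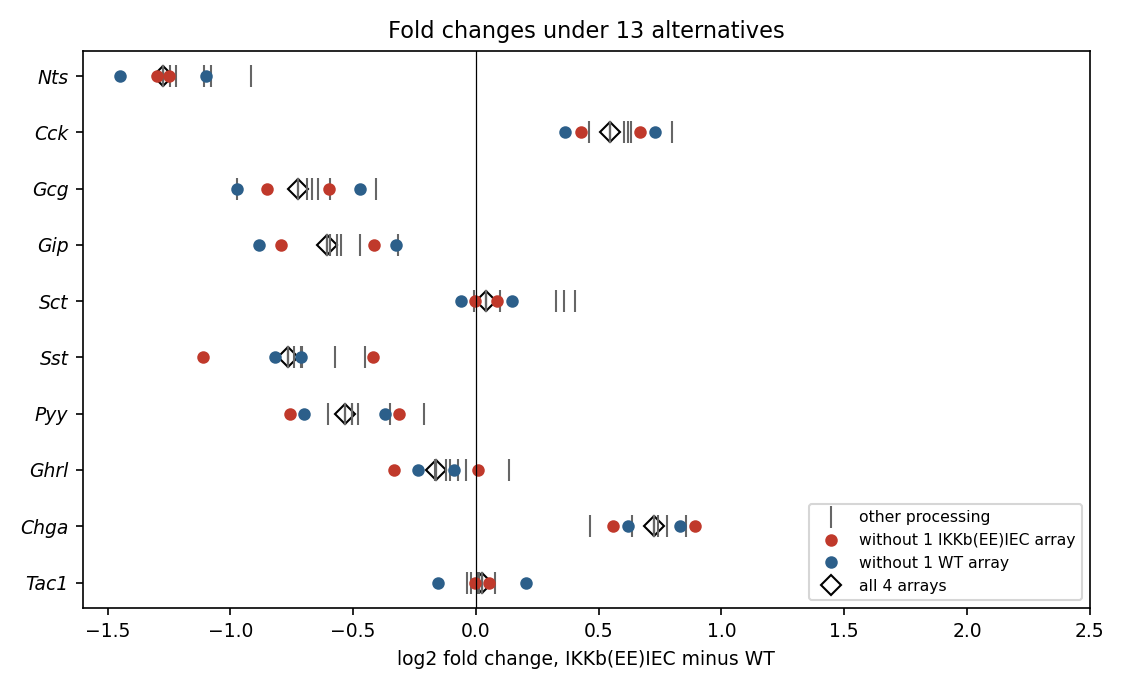
Log2 fold changes, IKKb(EE)IEC minus WT, of the 10 genes with all 4 arrays (diamonds), without 1 array (red for an IKKb(EE)IEC array, blue for a WT array) and under 9 other ways of processing (grey ticks). Sct, Ghrl and Tac1 cross 0, and the other 7 genes stay on 1 side.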

How the data were processed

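Small-bowel cells of 2 IKKb(EE)IEC and 2 WT samples were measured on 1-colour arrays of Agilent design 014868, grouped by sample title. Per the file headers, the authors extracted spot intensities with Agilent's Feature Extraction 9.5.3.1. Its processed signal has the background subtracted and spatial trends removed, and arrays were not yet normalized to each other. The authors' deposited value table holds linear intensities (column medians 111.5 to 112.0), and the sources used here do not give its normalization. Ranks of its columns tracked the scanner's median signals of the matching arrays (Spearman 0.999 to 1.00).

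The deposited intensities were put on a log2 scale relative to the 75th percentile of their array. Control spots and non-uniform spots (1 to 7 per array) were left out, and spots of a probe were averaged. Probes well above background in at least 2 of 4 arrays were tested, with the brightest probe for a gene (12437 genes). Names follow GRCm38.p6 through 24375 matched RefSeq accessions. Probe coordinates are mm8, per the file headers, and exons were not assigned. The two-sided test was limma's moderated fit (version 3.58.1, run in R 4.3.3), adjusted by Benjamini-Hochberg over all genes. The method was tested on simulated data.

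The hormones were named for this work, and the companion lists were chosen with earlier results of these data known. Named from each companion list were up to 4 called genes with the largest change, or 2 with the smallest p, and from each list of other cells up to 2. Others, such as Epcam, Vil1, Cdx2, Fabp6, Slc10a2, Pcsk1, Pcsk2, Cpe, Tph1, Neurog3, Isl1, Dpp4, Insl5, Adh1, Lct, Ins1, Ins2, Pnliprp1 and markers below background, were named after their values were seen. So were C1qb, Csf1r, Cd68 and Slc2a2. Some genes counted in these lists are not reported by name here. Alternatives were leaving out each array, the replicate number as a block, other shifts, normexp corrections, the value table, other filters and the mean over probes. No block for the slide could be fitted, since there is 1 slide. Whether same-numbered samples are related is not stated. The p-values rest on the spread between these samples, which limma moderates with the spread over all genes tested.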

Additional observations from a re-analysis of the deposited data

How the results depend on the processing

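With 2 arrays per genotype, leaving out 1 array moved the number of called genes most, from 1893 with all arrays to between 247 and 6175, and the number of called hormones from 1 to between 0 and 7. These extremes were the fits without IKKb(EE)IEC replicate 1 (247 genes, 0 hormones) and without WT replicate 1 (6175 genes, 7 hormones). Without IKKb(EE)IEC replicate 2 limma called 329 genes and 0 hormones, and without WT replicate 2 it called 4181 genes and 3 hormones. An unadjusted p below 0.05 was reached by 2 hormones without either IKKb(EE)IEC array. A group left with 1 array is assumed to vary like the other. The median of the hormones lay between -0.55 and -0.16 in these fits. The plain normexp correction called 0 genes and 0 hormones by limma (171 genes and 0 hormones at an unadjusted p below 0.05). The normexp correction with the darkest spots raised, added after seeing the data, called 1943 genes and 3 hormones and gave a hormone median of -0.10. No filter gave 843 genes over 27727 tested. The value table called 3 hormones, the filter on all 4 arrays 2 and the mean over probes 2. Higher genes made up 52.7% of the calls, and 63.2% with a shift by the array median, 72.1% with that added correction and 40.0% with the filter on all 4 arrays. The median of all genes was -0.12, -0.01 with the added correction, -0.02 in the value table and -0.45 with no filter.

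Of the hormones, 3 changed sign. Leaving out 1 array gave Sct values of -0.062 (no WT replicate 1) to 0.15, among them -0.0042 (no IKKb(EE)IEC replicate 2), and plain normexp gave -0.0083. For Tac1 they ran from -0.15 (no WT replicate 1) to 0.20, among them -0.0040 (no IKKb(EE)IEC replicate 1), with -0.035 under plain normexp and -0.019 in the value table. For Ghrl they ran from -0.33 to 0.0094 (no IKKb(EE)IEC replicate 1), with 0.13 under the added correction. Both genotypes carry replicate numbers 1 and 2 in the titles. The deviations of same-numbered samples correlated at 0.108 over genes, which with 2 pairs does not show a pairing. With the replicate number as a block, 1500 genes and 1 hormone (Nts) were called, and the hormone median was -0.35. The causes of these changes were not tested. The second probe of Gcg was well above background on 1 IKKb(EE)IEC array and has 1 spot per array, so its spot error was not measured.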
